A study of Mus musculus with 2 samples.

Results

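The cells described here are immature neutrophils, taken as non-cycling by a limit on Mki67 and Top2a, that still carried transcripts of the secondary granules. They were found in a preparation of cells sorted from mouse bone as osteal macrophages, the resident macrophages of the bone surface. They were chosen by their own transcripts: at least 1% of a cell's gene UMIs (unique molecular identifiers, each standing for 1 captured transcript) from Camp, Ngp and Ltf together, at least 5% from S100a8 and S100a9, under 0.5% from Prg4 and Dcn, and fewer than 2 UMIs of Mki67 and Top2a. Of 2349 cell barcodes, 324 met the rule, and the levels of those 9 genes are therefore given as a description only. The cells came from female BALB/c mice that had an ovariectomy (OVX), a surgical model of postmenopausal bone loss, or a sham operation at 10 weeks of age, and bones were taken 4 weeks after surgery.

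Femurs and vertebrae of 20 mice per operation gave the cells, released by enzymes (trypsin, then collagenase D) and sorted on CD11b, F4/80 and CD68. Marrow had been removed from the femurs beforehand. Each operation gave 1 pool, marked with hashtag 1 (OVX) or hashtag 2 (sham). Both pools were run in 1 droplet library, with gene expression and hashtags read over the same barcodes. Of the 324 cells, 117 carried the OVX hashtag, 159 the sham hashtag, 36 neither and 12 both. With 1 pool per operation no test between OVX and sham was possible, the animals cannot be told apart within a pool, and every interval below is a 95% interval that covers counting error only. The cells held a median of 7432 gene UMIs (536 to 29569) and 1687.5 genes, with 2646139 UMIs in all. The OVX cells held a median of 8069 UMIs and 1079789 in sum, and the sham cells 7429 and 1248875.

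Neutrophils are made in the marrow in an ordered series, and each stage fills its own class of granule. Promyelocytes make the primary granules with Mpo, Elane and Ctsg. Myelocytes and metamyelocytes then make the secondary granules with lactoferrin (Ltf), the cathelicidin (Camp), the neutrophilic granule protein (Ngp) and lipocalin 2 (Lcn2) under the factor C/EBP epsilon (Cebpe). Band and segmented cells go on to gelatinase granules and to receptors such as Cxcr2, with which they leave the marrow. Granule proteins are folded and glycosylated in the endoplasmic reticulum (ER) before they are packed.

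The 3 granule genes of the rule lie on chromosome 9 (GRCm38, GENCODE gene bounds). Camp lies at chr9:109847379-109849617 on the minus strand, Ngp at chr9:110419747-110423012 and Ltf at chr9:111019271-111042767, both on the plus strand. The sequences before the Ngp and Ltf start sites are shown because C/EBP factors drive this gene class. Each is the RefSeq promoter (GRCm38.p6), without any base that lies inside the GENCODE gene bounds, read 5′ to 3′ on the gene's strand (Ngp chr9:110419558-110419746, Ltf chr9:111019042-111019270). Capitals mark matches to the C/EBP motif TTNNGCAA on either strand.
Ngp: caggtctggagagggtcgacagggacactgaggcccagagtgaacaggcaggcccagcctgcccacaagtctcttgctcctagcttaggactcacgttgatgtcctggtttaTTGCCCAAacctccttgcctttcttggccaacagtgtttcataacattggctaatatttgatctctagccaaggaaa
Ltf: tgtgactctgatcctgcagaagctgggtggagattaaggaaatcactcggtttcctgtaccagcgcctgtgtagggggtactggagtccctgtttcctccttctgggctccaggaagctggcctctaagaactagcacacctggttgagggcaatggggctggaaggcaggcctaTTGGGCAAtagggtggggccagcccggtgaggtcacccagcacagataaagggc
In the full 250 bases before the RefSeq start, Ngp held 2 matches, Ltf held 1 and Camp held none. At least 1 match was held by 9.56% of the 32851 promoters searched and by 10.8% of their 27025 genes. A match is a run of letters and not a shown binding site. Of 13 other secondary granule genes with a promoter entry, 4 held the motif: Lcn2, Mmp8, Ptx3 and Anxa1.

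Summed over the 324 cells, Camp stood at 3679 CPM (3607 to 3753), the counts scaled to 1000000 gene UMIs, Ngp at 20450 CPM and Ltf at 3493 CPM (3423 to 3565). All 324 cells held Ngp, 288 held Ltf and 270 held Camp, and 250 held all 3. The largest part of the rule's value was thus Ngp in most cells: the median cell gave 1.62% of its UMIs to Ngp, 0.156% to Ltf and 0.137% to Camp. S100a9 and S100a8, which encode the subunits of calprotectin, took a further 19.5% and 12.2% of the median cell. The summed granule share had a median of 2.13% (1.00% to 10.9%), against 0.0272% in the 1412 later neutrophils, defined by the same rule with a granule share under 1%.

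The granule share ran on without a gap at the threshold. Among the non-cycling cells with 5% or more of S100a8 and S100a9, 151 held 0.5 to 1% of granule transcripts, 150 held 1 to 2%, 77 held 2 to 3%, 67 held 3 to 5% and 30 held 5% or more. The members nearest the threshold lay at 1.00021 to 1.01829%, and the cells just outside at 0.97804 to 0.998819%. The 324 cells are thus a range of a continuous measure and not a separate island. The plot of granule share against S100 share shows this.

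**Figure D1:**
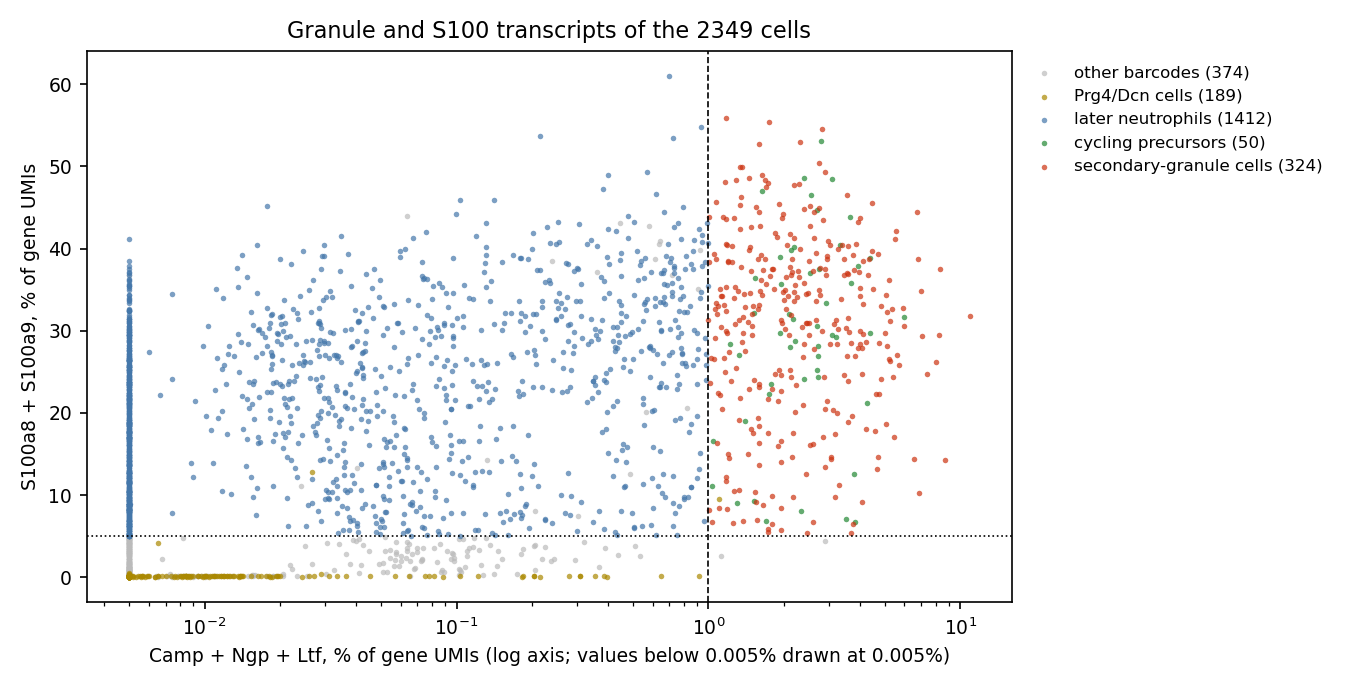
Each point is 1 barcode; the horizontal axis is the Camp, Ngp and Ltf share and the vertical axis the S100a8 and S100a9 share of its gene UMIs in percent, coloured by class. The immature neutrophils lie right of the 1% line, and their points run on into the later neutrophils without a gap.

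Prg4 and Dcn are transcripts of synovial and stromal cells, which should lack granule transcripts. Free RNA in droplets was therefore looked for in the 189 barcodes rich in Prg4 and Dcn. They held Ngp at 51.3 CPM, with a UMI in 59.8% of cells at a median depth of 20523 UMIs, and Ltf at 12.2 CPM, with a UMI in 22.8%. The same genes stood at 20450 and 3493 CPM in the immature neutrophils, a distance that the rule itself sets. Camp stood at 388 CPM in the same barcodes, above Ngp there, the reverse of the order in the neutrophils. Whether free RNA alone gave these values was not tested. In the other direction, Prg4 reached 74.8 CPM and Dcn 66.5 CPM in the immature neutrophils, against 28390 and 17971 CPM in the Prg4 and Dcn barcodes.

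Genes that the rule did not use placed the cells in the neutrophil line. Lcn2 stood at 6824 CPM, against 1673 CPM in later neutrophils and 1569 CPM in the Prg4 and Dcn barcodes. Ly6g, the surface antigen used to sort neutrophils, held a UMI in 261 of 324 cells (80.6%, against 27.0% of the Prg4 and Dcn barcodes). Cebpe stood at 88.4 CPM, against 9.46 CPM in later neutrophils and 0.200 CPM in the Prg4 and Dcn barcodes. The primary granule list of 8 genes summed to 771 CPM, against 372 CPM in later neutrophils, and Serpinb1a, a cytosolic inhibitor of granule proteases, gave 665 CPM of it. The genes of the granule enzymes themselves were low: Mpo stood at 0.756 CPM and Elane at 0.378 CPM, Ctsg had no UMI, which allows up to 1.13 CPM, and Prtn3 stood at 5.29 CPM.

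Macrophage markers were low in cells sorted as macrophages. Of 10 macrophage markers, 4 had no UMI in these cells (C1qa, C1qb, C1qc and Mertk), and the list summed to 70.3 CPM, of which Cd68 gave 52.5 CPM. Itgam, which encodes CD11b, held a UMI in 319 of 324 cells and Cd68 in 95, whereas Adgre1, which encodes F4/80, held one in 4 cells and Csf1r in 6. Cd68 had a UMI in 29.3% of these cells and in 21.7% of the deeper Prg4 and Dcn barcodes. The macrophage list summed to 96.3 CPM in the OVX pool, against 54.4 CPM in the sham pool. Markers of other lines were also low: the monocyte list summed to 106 CPM, of which Ly6c2 gave 99.0, and the T and NK list to 55.9 CPM, of which Cd3d gave 54.4 with Cd3e and Trac at 0. The endothelial list summed to 21.5 CPM, and those for dendritic, B, erythroid, eosinophil, basophil or mast, megakaryocyte, progenitor, stromal (Prg4 and Dcn aside) and osteoclast cells to 7.94 CPM or less each. Oestrogen receptor transcripts were rare, with Esr1 at 6.05 CPM (3.46 to 9.82) from 16 UMIs and Esr2 at 0.378 CPM from 1.

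The cells differed among themselves along the granule share. Ordered by that share in 3 equal groups of 108 cells, the high group held Lcn2 at 9321 CPM, the middle group at 6787 and the low group at 4092. Cybb, the catalytic subunit of the phagocyte oxidase, followed the same order at 425, 149 and 73.0 CPM. Cebpe stood at 139, 88.9 and 31.8 CPM. These genes were lower where the granule transcripts were lower, and 11 of the 13 secondary granule genes outside the rule and 11 of 13 immature neutrophil genes were higher in the high group than in the low group, as were 46.1% of all 1203 genes that reached 100 CPM in either.

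Genes of later stages ran the other way. Csf3r, the receptor for granulocyte colony-stimulating factor, stood at 168, 207 and 375 CPM from the high group to the low, and at 989 CPM in later neutrophils. Ccl6, a chemokine, stood at 3309, 5646 and 8360 CPM, against 19827 CPM in later neutrophils. Mmp8, the neutrophil collagenase, is listed with the secondary granules yet followed this second order, at 417, 534, 696 and 1402 CPM. Of 20 mature neutrophil genes, 18 were lower in the high group than in the low group, against 53.9% of all genes at that level. Since the granule genes set the order of the cells, these levels are a description.

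**Figure D2:**
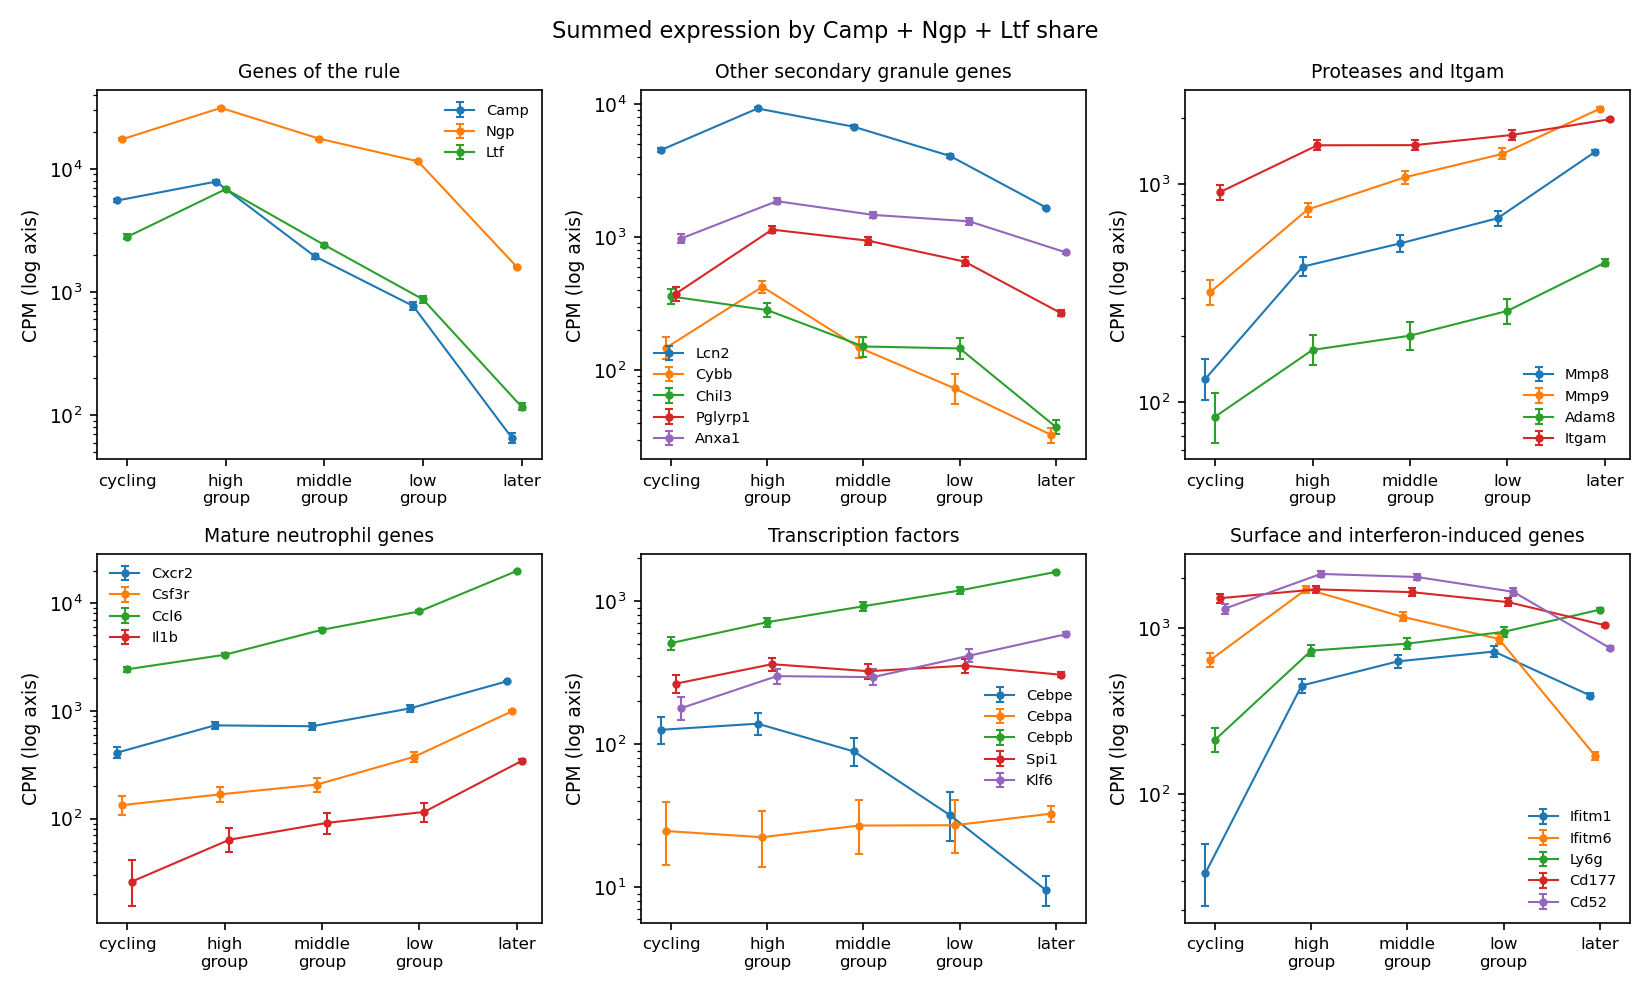
CPM on a log axis, with 95% Poisson intervals for counting error, of named genes in cycling precursors, the high, middle and low groups of the immature neutrophils by granule share, and later neutrophils. Lcn2, Cybb, Pglyrp1, Anxa1 and Cebpe descend from the high group to later neutrophils, whereas Csf3r and Ccl6 ascend.

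The interferon-induced genes Ifitm1 and Ifitm6 had their highest values inside the immature neutrophils. Ifitm1, an interferon-induced membrane protein, stood at 33.3 CPM in cycling precursors, at 449, 628 and 720 CPM over the 3 groups and at 391 CPM in later neutrophils. Ifitm6 stood at 639 CPM in cycling precursors, 1713, 1165 and 858 CPM over the 3 groups and 170 CPM in later neutrophils. Retnlg, a resistin-like secreted protein, had nearly reached its later level, at 13156 CPM in the low group against 13803 CPM. Cebpa did not follow the series, with values from 22.3 to 32.6 CPM throughout, while Cebpb stood at 715, 924 and 1191 CPM over the 3 groups and 1608 CPM in later neutrophils.

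Against later neutrophils, 1330 genes reached 100 CPM in either class, of which 129 were at least 2-fold higher in the immature cells (9.7%) and 161 at least 2-fold lower (12.1%). The classes were split by granule transcripts, so nothing is read from these counts. Outside the genes of the rule, the highest ratios were those of Ifitm6 (1261 against 170 CPM), Clec12a, an inhibitory lectin receptor (122 against 16.4 CPM), Krt83, a keratin (136 against 18.6 CPM), and Cybb (223 against 32.6 CPM). Of 76 ribosomal protein genes that reached 100 CPM, a list set up after the values were seen, 63 were at least 2-fold higher. Their summed level was 36538 CPM, between 73227 CPM in cycling precursors and 15719 CPM in later neutrophils.

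Among the genes lower in the immature cells, the chemokine Ccl4 stood at 11.3 against 205 CPM. Ccl3 stood at 88.1 against 520 CPM, and Clec4n, the lectin receptor dectin-2, at 74.4 against 567 CPM. Ccl3 and Ccl4 encode chemokines that attract leukocytes. Of 20 mature neutrophil genes that reached 100 CPM, 13 were at least 2-fold lower and 0 at least 2-fold higher. Over all 1330 genes the shares were 12.1% and 9.7%.

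Against the 50 cycling precursors, which met the granule rule with 2 or more UMIs of Mki67 and Top2a, 79 of 1334 genes were at least 2-fold higher in the non-cycling cells (5.92%) and 247 at least 2-fold lower (18.5%). Here too the rule made the split. Ifitm1 had the highest ratio, 17.8-fold (594 against 33.3 CPM). Stfa3, a cysteine protease inhibitor of the stefin family, stood at 217 against 33.3 CPM, and Lyz2, lysozyme, at 563 against 112 CPM. Birc5 and Rrm2, genes of chromosome segregation and of nucleotide synthesis, had no UMI in the 324 cells, against 178 and 132 CPM in the precursors. All 16 cell cycle genes that reached 100 CPM were at least 2-fold lower, and Hmgb2 stood at 986 against 4044 CPM. The limit on Mki67 and Top2a depends on depth, since 38 members held 1 such UMI and the precursors had a median of 14388.5 UMIs.

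The comparison of OVX with sham asks how the loss of the ovaries bears on the sorted cells. Of 1059 OVX cells, 117 were immature neutrophils, a share of 11.05% (exact Clopper-Pearson interval 9.22% to 13.1%). In the sham pool it was 159 of 981, a share of 16.2% (13.96% to 18.7%). The OVX share was 0.682 of the sham share, a ratio between 2 pools with no replicate check. The 36 immature neutrophils with neither hashtag called held a median hashtag 1 count of 52 and a median hashtag 2 count of 1207, and all 36 go to sham if a barcode is given to the hashtag with 80% of its hashtag UMIs. By the same rule 22 of the 117 OVX cells and 0 of the 159 sham cells lose their call, and 3 of the 12 cells with both hashtags go to sham. Under that rule the shares were 9.94% in OVX and 17.0% in sham. Later neutrophils stood at 69.1% in OVX and 59.5% in sham, and cycling precursors at 1.98% and 2.45%. With each cell thinned to 1000 UMIs, which left out 171 shallower barcodes, the shares were 13.7% and 19.0%. The limit on Mki67 and Top2a UMIs was not lowered with depth, so cells counted as cycling precursors at full depth can enter these shares. Animal-to-animal spread, cell recovery and the sort gate were not measured, so their part in the shares was not tested.

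Within the immature cells, the granule share had a median of 1.83% in OVX and 2.27% in sham. Camp stood at 3279 CPM in OVX, against 3885 CPM in sham, Ngp at 18545 and 21755 CPM, and Ltf at 2960 and 4012 CPM. Of the 13 other secondary granule genes with UMIs, 11 were lower in OVX, where 756 of the 1154 genes at 100 CPM or more (65.5%) were also lower; among the 11 were Lcn2 (5814 against 7471 CPM) and Mmp8 (345 against 629 CPM). Mmp8 did not keep that direction in cells above the median mitochondrial share, where its log2 ratio was 0.19. Cebpe stood at 86.1 and 88.9 CPM, a ratio of 0.969 whose interval includes 1 (0.728 to 1.29). The mitochondrial share of UMIs had a median of 1.197% in OVX and 0.580% in sham cells. Its part in the differences between the pools was not tested, and values on either side of its median over all members are given below for some genes. Wfdc17, Asprv1, Acta2, Csf3r, Stfa3, Hsp90b1, Pdia6, Manf, Calr, Pdia3, Canx, Thbs1, Hmox1, Cybb, Hp and Lrg1, described below, each had the same direction on both sides of it.

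Of 1154 genes that reached 100 CPM in either pool, 12 were at least 2-fold higher in OVX (1.04%) and 11 at least 2-fold lower (0.953%), and the median log2 ratio over all of them was −0.12. The higher genes included Wfdc17, Ccl6, Fpr1 (a formyl peptide receptor), Csf3r, Lipg (endothelial lipase) and Stfa3. The other 6 were Asprv1, Acta2, Tmsb10, Marcks, Egr1 and Gm16096. Of the 11 lower genes, 6 stand in a list of ER folding genes: Pdia6, Hsp90b1, Calr, Pdia3 and Canx, which encode chaperones and isomerases, and Manf, an ER stress-induced factor. Lyz2, Ghitm, Psmd1, Acpp and AI662270 were the others.

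**Figure D3:**
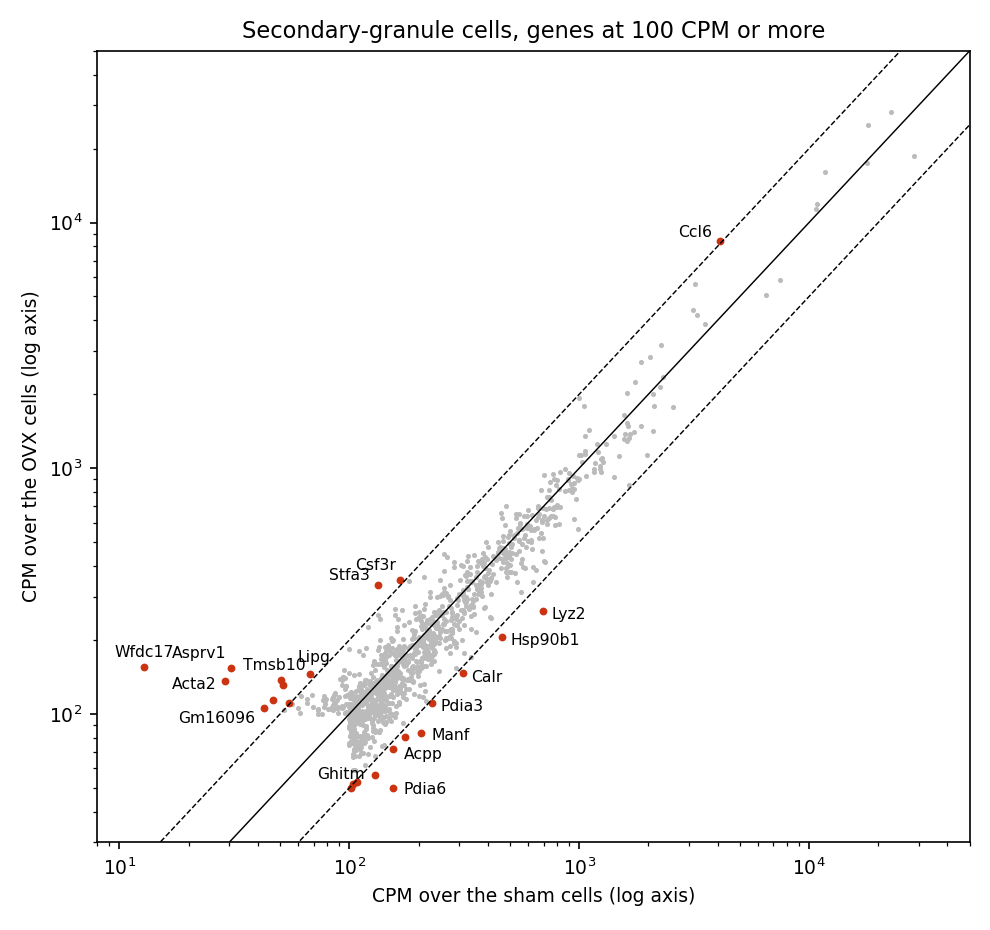
CPM of each gene in the sham (horizontal) and OVX (vertical) immature neutrophils on log axes, with lines at a 2-fold ratio. Wfdc17, Asprv1 and Acta2 lie highest above the upper line, and 6 ER folding genes lie under the lower line.

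Wfdc17, a secreted protein with a whey acidic protein domain, had the highest ratio, with 155 CPM in OVX (132 to 180) and 12.8 CPM in sham (7.32 to 20.8), 12.1-fold (7.22 to 21.6). Those 167 OVX UMIs came from 30 of 117 cells, and 5 cells gave 73.7% of them, with 37 and 33 UMIs in the highest cells. In sham, 9 of 159 cells held 16 UMIs, at most 3 in a cell. The levels thus rest on few cells, and without the 5 cells of each pool with most Wfdc17 UMIs, 44 UMIs were left in OVX and 4 in sham. With Mki67 and Top2a below 1 UMI the log2 ratio of Wfdc17 was 2.53, against 3.59 under the rule. In later neutrophils, which come from the same pools, Wfdc17 stood at 1008 CPM in OVX, against 52.5 CPM in sham.

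Asprv1, an aspartic protease, and Acta2, smooth muscle actin, came next. Asprv1 stood at 154 against 30.4 CPM (5.05-fold, 3.53 to 7.39), with 65.7% of its OVX UMIs in 5 cells. Its level was 361 against 37.1 CPM in cells at or below the median mitochondrial share and 59.3 against 21.9 CPM above it. Acta2 stood at 136 against 28.8 CPM (4.72-fold, 3.26 to 7.003), with 40.1% in 5 cells. Its log2 ratio was 4.19 above the median mitochondrial share and 1.38 in the upper part of the granule share. Of the 6 OVX cells with 5 or more Wfdc17 UMIs, 5 also held Acta2 and 4 held Asprv1. Over all 117 OVX cells, 36 held Acta2 (30.8%) and 30 held Asprv1 (25.6%). No sham cell had 5 or more Wfdc17 UMIs. All 3 genes are also higher in later neutrophils than in the immature ones.

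Ccl6 was instead present throughout, in 116 of 117 OVX cells and 148 of 159 sham cells. Its level was 8394 CPM in OVX (8222 to 8569) and 4111 CPM in sham (3999 to 4225), a ratio of 2.04 (1.97 to 2.11). Among cells at or below the median mitochondrial share it stood at 12338 against 5049 CPM, and among those above it at 6599 against 2913 CPM. Csf3r stood at 350 against 167 CPM (2.10-fold, 1.77 to 2.50). Of other genes that were higher toward the low granule group, Cxcr2 had a log2 ratio of 0.23, Retnlg of 0.08 and Mmp8 of −0.86. The part of the granule share, lower in OVX, in these values was not tested.

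Stefins and antiproteases, inhibitors that neutrophils carry in the cytosol and in granules, were higher in OVX for 10 of 11 genes. Of all genes at 100 CPM or more, 34.5% were higher. Of the 9 genes of the list that reached 100 CPM, 8 were above 1, 2 of them past 2-fold (Wfdc17 and Stfa3) against 1.04% of all. Their median log2 ratio was 0.49, against −0.12 over all genes tested. Stfa3 stood at 336 CPM in OVX, against 134 CPM in sham (2.51-fold, 2.09 to 3.04). It had a UMI in 26.5% of OVX and 17.0% of sham cells, and 5 cells gave 55.6% and 65.3% of its UMIs. Its level thus rests on few cells. For Cstdc4, the most abundant gene of the list, 5 cells gave 33.3% of the OVX and 41% of the sham UMIs. The log2 ratio of Stfa3 was 2.45 among members in the upper part of the granule share and 0.12 in the lower. The whole list did not follow Stfa3 in this. In the lower part of the granule share it summed to 18271 CPM in OVX and 11098 CPM in sham. In the upper part the sums were 11952 and 10812 CPM. Over all members of each pool the list summed to 15486 CPM in OVX and 10927 CPM in sham. That difference was not the same over the mitochondrial share: the ratio of the sums was 2.15 in cells at or below its median (31 OVX, 95 sham) and 0.976 above it (86 and 64). In later neutrophils the sums were 26358 and 7794 CPM.

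The ER folding genes form a network of chaperones and disulphide isomerases in the ER lumen. Hspa5 (BiP) and Hsp90b1 (Grp94) are its main chaperones, Calr and Canx bind glycoproteins, and Pdia3, Pdia4, Pdia6 and P4hb form disulphide bonds. The list was drawn up after the values had been seen, so its counts describe these pools and support nothing further. Hspa5 and Hsp90b1 lie at chr2:34771970-34777547 (plus strand) and chr10:86690209-86705509 (minus strand), Calr at chr8:84841850-84846934 (minus) and Pdia6 at chr12:17266545-17284770 (plus).

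The promoters of 3 of these genes are printed because the ER stress element, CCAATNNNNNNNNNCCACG, through which the unfolded protein response drives this gene class, recurred in them; it includes a CCAAT box. Each is the RefSeq promoter (GRCm38.p6) up to the GENCODE gene bounds, 5′ to 3′ on the gene's strand (Hsp90b1 chr10:86705510-86705694, Calr chr8:84846935-84847181, Pdia6 chr12:17266339-17266544). Capitals mark the element on either strand.
Hsp90b1: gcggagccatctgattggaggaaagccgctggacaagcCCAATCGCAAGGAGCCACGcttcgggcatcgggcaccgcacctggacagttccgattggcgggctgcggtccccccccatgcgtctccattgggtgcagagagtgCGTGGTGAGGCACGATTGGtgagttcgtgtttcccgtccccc
Calr: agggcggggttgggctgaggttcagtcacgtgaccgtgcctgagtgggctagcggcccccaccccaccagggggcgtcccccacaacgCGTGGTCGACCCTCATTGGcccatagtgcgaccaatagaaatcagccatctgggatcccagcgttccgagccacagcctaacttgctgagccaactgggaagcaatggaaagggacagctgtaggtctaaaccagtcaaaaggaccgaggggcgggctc
Pdia6: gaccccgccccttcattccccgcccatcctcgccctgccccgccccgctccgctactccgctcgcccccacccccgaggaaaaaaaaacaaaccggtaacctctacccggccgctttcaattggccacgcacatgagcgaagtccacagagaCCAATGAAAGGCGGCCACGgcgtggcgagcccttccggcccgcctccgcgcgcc
Within 250 bases before the RefSeq start, the element was found in 7 of the 14 listed genes with a promoter entry (50%): Hspa5, Hsp90b1, Calr, Canx, Pdia6, Dnajc3 and Creld2. It was found in 35 of the 27025 genes searched (0.130%), or 37 of their 32851 promoters (0.113%). Of 17 genes of ER translocation and glycosylation, 0 held it. A match is a description of these letters and not a site shown to be bound.

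Of the 16 ER folding genes, 15 were lower in OVX than in sham immature neutrophils, as were 65.5% of the genes at 100 CPM or more. Of the 9 that reached 100 CPM all 9 were lower, 6 past 2-fold, with a median log2 ratio of −1.05 against −0.12 over all genes tested. Hsp90b1 stood at 207 CPM in OVX (180 to 236) and 460 CPM in sham (424 to 500), a ratio of 0.449 (0.383 to 0.524). Pdia6 stood at 50.01 and 155 CPM, a ratio of 0.324 (0.235 to 0.440), the lowest of all genes tested. Hspa5, the most abundant of them, stood at 420 and 703 CPM, a ratio of 0.597 (0.532 to 0.669).

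Among the other genes of the list, Ppib, a prolyl isomerase, had a log2 ratio of −0.71. Manf, a secreted ER stress-induced factor, stood at 83.3 CPM in OVX, against 204 CPM in sham. Calr stood at 146 and 311 CPM, Pdia3 at 111 and 230 CPM, and Canx at 52.8 and 108 CPM. The list summed to 1435 CPM in OVX, against 2858 CPM in the sham pool.

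**Figure D4:**
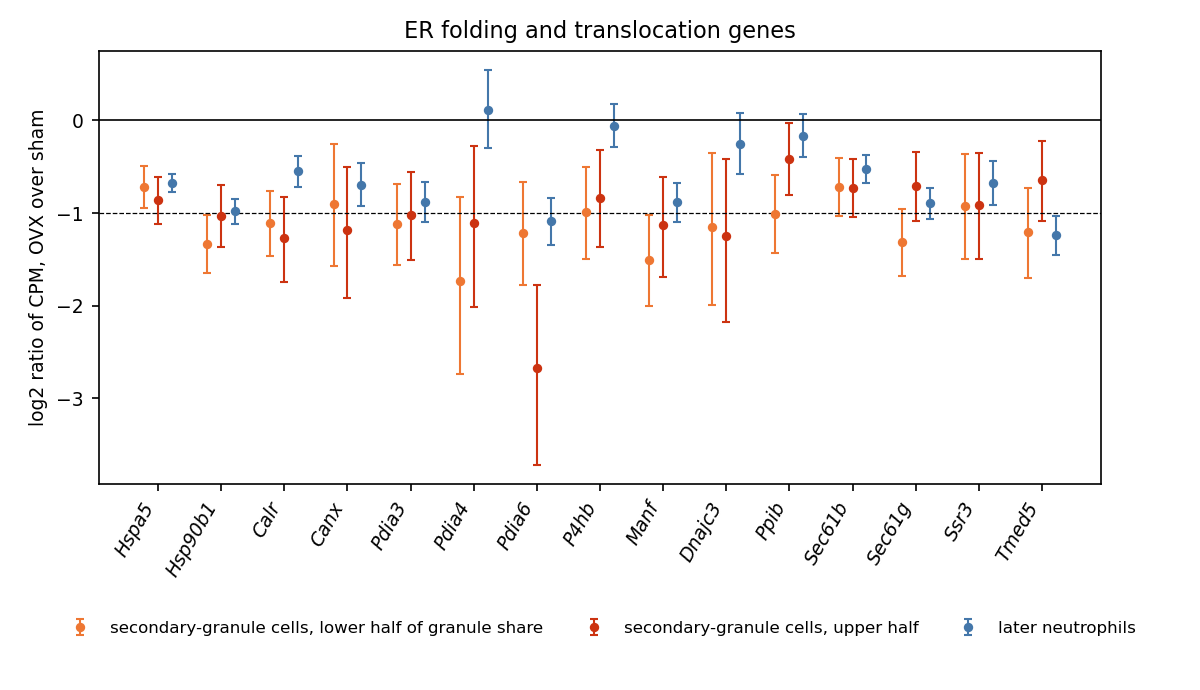
Log2 ratio of OVX over sham CPM for 11 ER folding and 4 ER translocation genes, in immature neutrophils of the lower and upper part of the granule share and in later neutrophils, with 95% counting intervals; the dashed line marks a ratio of 0.5. Every point of the immature cells lies below 0, the lowest being Pdia6 at −2.67 in the upper part, and in later neutrophils Pdia4 lies above 0.

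The ER difference lay in many cells and not in a few. An ER folding share of 0.3% or more of UMIs was found in 12 of 117 OVX cells (10.3%, 5.41% to 17.2%) and in 50 of 159 sham cells (31.4%, 24.3% to 39.3%). The median share was 0.119% in OVX and 0.189% in sham, and 0.150% in the 36 cells with neither hashtag. The pools overlapped, with highest cells at 0.632% and 1.39%. Pdia6 had a UMI in 29 of 117 OVX cells (24.8%) and in 70 of 159 sham cells (44.0%).

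**Figure D5:**
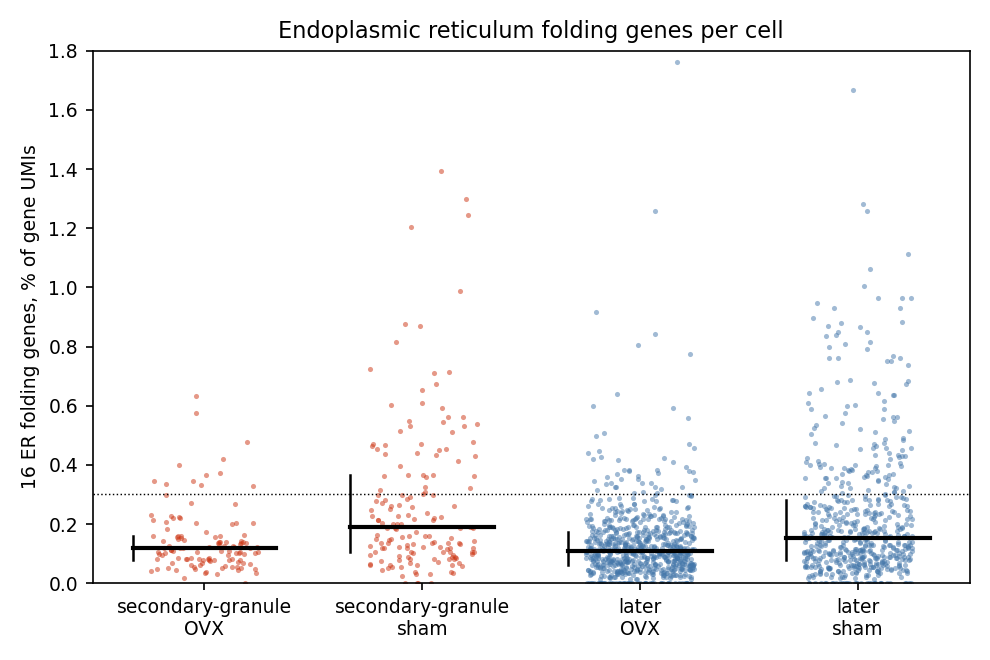
Each point is 1 immature (red) or later (blue) neutrophil of either pool, and the vertical axis is the share of its gene UMIs from the 16 ER folding genes in percent; horizontal bars are medians, vertical bars the quartiles, and the dotted line marks 0.3%. Among the immature cells sham reaches 1.39% and OVX 0.632%, and the bulk of both pools overlaps.

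The cells at or above 0.3% of ER folding transcripts had no common order of depth or granule share over both pools. In sham they had a median of 7726.5 UMIs and a granule share of 1.99%, against 7404 UMIs and 2.37% in the other cells. In OVX the order was the reverse, at 7093 UMIs and 2.03% against 8103 UMIs and 1.797%. Their median mitochondrial share was 0.774% against 0.482% in sham and 0.785% against 1.202% in OVX, and its part in the ER values was not tested. Across the 324 cells, which share 1 library and differ in depth, the ER folding share had a Spearman rho of 0.03 with the granule share, 0.07 with UMIs and 0.06 with the mitochondrial share. The summed ER folding ratio was 0.629 (0.569 to 0.695) among cells at or below the median mitochondrial share and 0.409 (0.379 to 0.442) above it, below 1 in both. The log2 ratio of Hspa5 was −0.22 in the first set of cells and −1.16 in the other.

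Genes of ER entry and of protein breakdown were also lower in OVX. All 24 genes of ER translocation and glycosylation, a list also drawn up after seeing the values, were lower. Over the genes at 100 CPM or more, 65.5% were lower and the median log2 ratio was −0.12. All 12 of the list that reached 100 CPM were lower, none past 2-fold, with a median log2 ratio of −0.66. The summed ratio of all 24 genes was 0.625 in cells at or below the median mitochondrial share and 0.621 above it. For ER folding the ratios were 0.629 and 0.409, and the difference between the lists was not tested. Proteasome genes, which act in protein breakdown outside the secretory route and were also listed after the values were seen, numbered 39, of which 11 reached 100 CPM. All 11 were lower, with a median of −0.52, and Psmd1 passed 2-fold. The regulators Xbp1 and Atf4, factors of the unfolded protein response, had log2 ratios of −0.09 and −0.27. Ribosomal protein genes had a median of 0.01.

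Later neutrophils of the same pools gave ER values in the same direction. There 13 of 16 ER folding genes were lower in OVX and 8 of the 8 that reached 100 CPM, 1 past 2-fold, with a median log2 ratio of −0.79. Over the 1281 genes that reached 100 CPM in later neutrophils of either pool, 64.4% were lower in OVX, 6 past 2-fold, and the median was −0.12. Hsp90b1 stood at 192 and 378 CPM and Hspa5 at 433 and 689 CPM. ER translocation genes had a median of −0.40 and proteasome genes of −0.01 in later neutrophils. Both classes share their animals, pools and library, and the difference between the classes was not tested.

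Lyz2 and Fth1 were lower in OVX too, and both moved with the mitochondrial share. Lyz2 stood at 263 CPM in OVX, against 697 CPM in sham (0.378, 0.329 to 0.432). Among cells at or below the median mitochondrial share it stood at 373 and 1011 CPM, and above it at 213 and 295 CPM. Fth1, the ferritin heavy chain, stood at 18712 and 28572 CPM, at 31061 and 33308 CPM in the cells at or below that median, and at 13091 and 22525 CPM above it. Across the 324 cells the Spearman rho with the mitochondrial share was −0.48 for Lyz2 and −0.48 for Fth1, and the part of that share in both differences was not tested.

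Among the remaining lists, antioxidant genes were lower in OVX for 15 of 17, with a median log2 ratio of −0.26 over the 11 that reached 100 CPM, against −0.12 and 65.5% lower over all genes tested, and Hmox1, haem oxygenase, stood at 312 and 561 CPM. Glycolysis genes that reached 100 CPM had a median of −0.32, with 8 of 8 lower, against the same background. Cybb stood at 154 CPM in OVX, against 290 CPM in sham (0.530, 0.439 to 0.639), with a log2 ratio of −0.24 among members in the lower part of the granule share, whereas in later neutrophils it stood at 32.8 and 31.3 CPM. Thbs1, thrombospondin 1, stood at 851 and 1654 CPM. Hp, haptoglobin, was higher in OVX at 360 and 211 CPM, as was Lrg1 at 269 and 159 CPM. Esr1 stood at 6.48 CPM in OVX, against 7.21 CPM in sham, a difference that these counts cannot resolve (ratio 0.900, 0.285 to 2.71).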

How the data were processed

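Both pools were measured in 1 10x 3′ v3.1 library. The deposited counts are whole UMIs per gene and barcode, made by the authors with Cell Ranger on mm10 (GRCm38); the labels name version 6.0.1 and the matrix header 6.0.0. All 2349 barcodes were used without a further filter. Hashtags were called with HTODemux (Seurat 5.3.0, R 4.3.3, centred log-ratio, quantile 0.99): 1059 OVX, 981 sham, 78 both and 231 neither. The study's methods give 1037 OVX and 1084 sham cells as loaded, and the files hold 2349 barcodes in all. Barcodes with both hashtags were left out of OVX and sham, which removes doublets between pools but not within one, and no doublet caller was run.

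UMIs were summed over cells and given as CPM with exact Poisson intervals, shares with Clopper-Pearson intervals and ratios with exact conditional intervals, all 95% and for counting error only. No test was run, since each operation has 1 pool. Ratios were counted among genes at 100 CPM or more in either group, without the 9 genes of the rule. A count of 0 was given a limit of 3 counts. The calculation was tested on simulated data. Named genes are those of the gene lists, plus the 12 highest and 12 lowest ratios in each comparison; Ghitm, Psmd1, Acpp and AI662270 are among the latter. Members and lists were chosen with earlier results of these data known, and the ER, unfolded protein response, ribosomal, mitochondrial and proteasome lists after values were seen. Promoters came from RefSeq tables (GRCm38.p6) and gene bounds from GENCODE. Of the listed genes, BC100530 and Mx1 were not analysed here. Python 3.11.15, numpy 2.4.6, scipy 1.17.1, pandas 2.3.3 and matplotlib 3.10.9 were used. Alternatives varied the thresholds of the rule, the hashtag call, the CPM minimum, the scaling, the depth and the cells included.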

Additional observations from a re-analysis of the deposited data

How the results depend on the processing

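The rule's thresholds set the size of the class. With 0.5% of granule transcripts in place of 1%, 17.5% of OVX and 23.4% of sham cells qualified. With 2%, 174 cells qualified, 5.005% of OVX and 9.58% of sham. With Mki67 and Top2a below 1 UMI, the OVX share was 8.88%. With cells thinned to 1000 UMIs the shares were 13.7% and 19.0%, of a class that cycling precursors can then enter. The OVX share was below the sham share under each of these. Assigning a barcode to the hashtag with 80% of its hashtag UMIs gave 9.94% and 17.0%.

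Counts past 2-fold moved with the minimum level and the cells included. Genes higher in the immature than in later neutrophils numbered 222 at a minimum of 50 CPM and 239 with the total taken without the 5 granule and S100 genes, and lower genes 101 at 200 CPM. Genes higher than in cycling precursors numbered 140 at the 0.5% threshold, 21 below 1 UMI of Mki67 and Top2a, 152 at 50 CPM, 43 at 200 CPM, 142 with equal weight per cell and 159 with the reduced total. Lower genes numbered 162, 541 and 124 under the UMI, 50 CPM and 200 CPM settings and 379 with the reduced total. Below 1 UMI, cells with 1 such UMI pass by construction into the cycling class.

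Genes higher in OVX than in sham numbered 6 at the 2% threshold, 22 at 50 CPM, 3 at 200 CPM, 28 in members in the lower part of the granule share and 31 in members with low mitochondrial share. Lower genes numbered 18 at 2%, 23 at 50 CPM, 5 at 200 CPM, 34 with equal weight, 21 and 22 in the lower and upper parts of the granule share, and 30 and 23 at low and high mitochondrial share. Fewer cells enter the last settings. The splits by mitochondrial share and the removal of the 5 highest cells were chosen after seeing the data. Of 65 genes named for OVX against sham, 26 were past 2-fold, including some under the minimum of 100 CPM, and all 338 of their values under the alternatives kept their sign, 285 staying past 2-fold. Over all 65 genes, 802 of 845 values kept their sign. The minima of 50 and 200 CPM leave each gene's ratio unchanged and are not among these values. The reduced total is among them and moves all ratios alike. The values under the reduced total are thus no separate check of the sign. No paired analysis was possible because each operation gave 1 pool. Depth limits statements on rare transcripts such as Esr1.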

Other observations

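The 36 immature neutrophils with neither hashtag had a median mitochondrial share of 0.287%, against 1.197% in OVX and 0.580% in sham cells, and 8 of them (22.2%) had an ER folding share of 0.3% or more. HTODemux gave them no operation, and they entered the comparison of OVX with sham only under the 80% hashtag rule, which put all 36 in sham.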
